A study of Mus musculus with 2 samples.

Results

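The 10 cytokine genes described here encode interleukins, an interleukin antagonist and colony-stimulating factors: Il1a, Il1rn, Il6, Il11, Il18, Il23a, Il33, Lif, Csf1 and Csf2. They were taken by gene symbol from a table of 45777 genes, and all 10 were found. They were measured in YTN16, a mouse gastric cancer cell line, in 1 library from cells with a control short hairpin RNA (shControl, genotype given as WT) and 1 library from cells with a hairpin against Gas6 (shGas6, genotype given as Gas6 knockdown). GAS6 is the secreted ligand of the receptor tyrosine kinase AXL, and the study was set up to ask about this pathway in the response to immunotherapy. Whether the knockdown line was a pool or a single clone is not given in the sources used here.

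Interleukins and colony-stimulating factors are secreted signals that act on leukocytes and on the epithelium itself. Members of the IL-1 family bind paired receptors that signal through MYD88 to NF-kB, and the antagonist encoded by Il1rn occupies the IL-1 receptor without signalling. Members of the IL-6 family signal through the shared receptor chain gp130 to JAK kinases and STAT3, while colony-stimulating factors direct the growth and survival of macrophages and granulocytes. Epithelial and tumour cells can release several of these proteins, and their messenger RNAs are often short-lived.

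The libraries held 50756676 counts (shControl) and 51807140 counts (shGas6). Gas6 had 2480 and 731 counts, 3.45-fold lower in shGas6 (3.18 to 3.75), which is the direction the labels give, and Axl was 1.33-fold lower (1.31 to 1.36). Each range in brackets is a 95% interval that covers counting error alone, and with 1 library per group no difference has a replicate check or a test. CPM is the count scaled to library size, and it is used to compare a gene between the libraries. TPM is the authors' level per transcript length, and it is used to compare genes with each other. Of the epithelial markers, Krt8, Krt18, Krt19 and Cdh1 were each above 100 CPM in both libraries, whereas Epcam was at 0.629 and 0.503 CPM. The 4 abundant ones were also higher in shGas6, Krt18 by 2.40-fold (2.36 to 2.43), Cdh1 by 1.95-fold (1.89 to 2.02), Krt8 by 1.47-fold and Krt19 by 1.41-fold. The sum of the 5 epithelial markers went from 4436 to 6846 CPM, and its part in the cytokine differences was not tested. Of 14 leukocyte markers, 2 reached 1 CPM, Cd68 and Cd14. The summed level of the other 12 and Cd68 came to 6.35 (shControl) and 5.01 CPM (shGas6), and Ms4a1, Nkg7, Adgre1 and Tyrobp had 0 counts in both. Cd14 was at 448 and 224 CPM. Of 8 fibroblast markers 1 reached 1 CPM, and of 6 endothelial markers 2, with summed levels of 1.95 and 2.65 CPM and of 13.9 and 4.54 CPM. In such bulk RNA, fewer cells making a transcript and less of it per cell cannot be told apart.

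Most of the cytokine genes, 6 of 10, were higher in the shGas6 library beyond counting error: Csf2, Il1rn, Il33, Lif, Il1a and Csf1. Il6 was slightly lower, the interval of Il18 included no difference, and Il11 and Il23a were scarcely transcribed. The share of all measured genes that differ beyond counting error was not computed. The count of 6 therefore has no background to be read against. Of the 10 genes, 8 were measured, meaning that either library reached 1 CPM, and each of the 8 did so in both. Csf2, Il1rn and Il33 were at least 2-fold higher and none of the 8 was at least 2-fold lower. That is 37.5% of the 8, where 8.64% of all 13367 measured genes were at least 2-fold higher and 6.19% at least 2-fold lower. The ratio was above 1 for 6 of the 8 and for 49.1% of all measured genes. The median log2 ratio was 0.69 over the 8 genes and -0.01 over all measured genes. The 10 genes were chosen with earlier results of these data known. Their shares therefore do not stand for interleukins and colony-stimulating factors in general. Of 10 other measured ligands of these kinds, none was at least 2-fold higher and 4 were at least 2-fold lower. The related lists below were chosen in the same way, and the shares of all measured genes are their background too.

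The levels per length spanned a wide range, and the order at the top was the same in both libraries. Il1rn was highest, at 223 TPM in shControl and 516 TPM in shGas6, which placed it in the top 5.54% and the top 2.17% of the measured genes. Il33 was next at 167 and 346 TPM, followed by Csf1 at 99.0 and 156 TPM. These 3 genes made up 85.0% of the summed TPM of the 10 genes in shControl and 88.2% in shGas6. The sum itself was 575 TPM in shControl and 1154 TPM in shGas6.

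Below these, the order changed. In shControl, Il18 (25.2 TPM) and Csf2 (25.0 TPM) could not be separated within counting error, followed by Lif at 21.1 TPM. In shGas6, Csf2 (61.1 TPM) and Lif (36.3 TPM) both stood above Il18 (23.6 TPM). Il6 was at 10.6 and 8.85 TPM and Il1a at 3.67 and 6.01 TPM. Il11 (0.277 and 0.342 TPM) and Il23a (0.254 and 0.439 TPM) were lowest, and their counting intervals overlapped in each library.

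**Figure D1:**
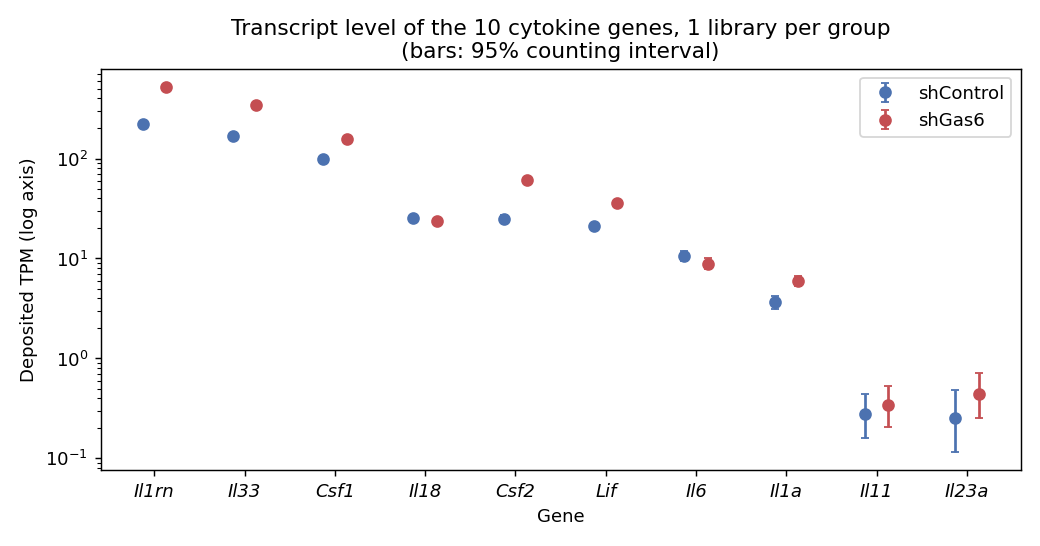
Deposited TPM (log axis) of the 10 cytokine genes in the shControl and shGas6 libraries, with 95% counting intervals. Il1rn, Il33 and Csf1 lie highest in both, and Il11 and Il23a lie below 1 TPM.

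**Figure D2:**
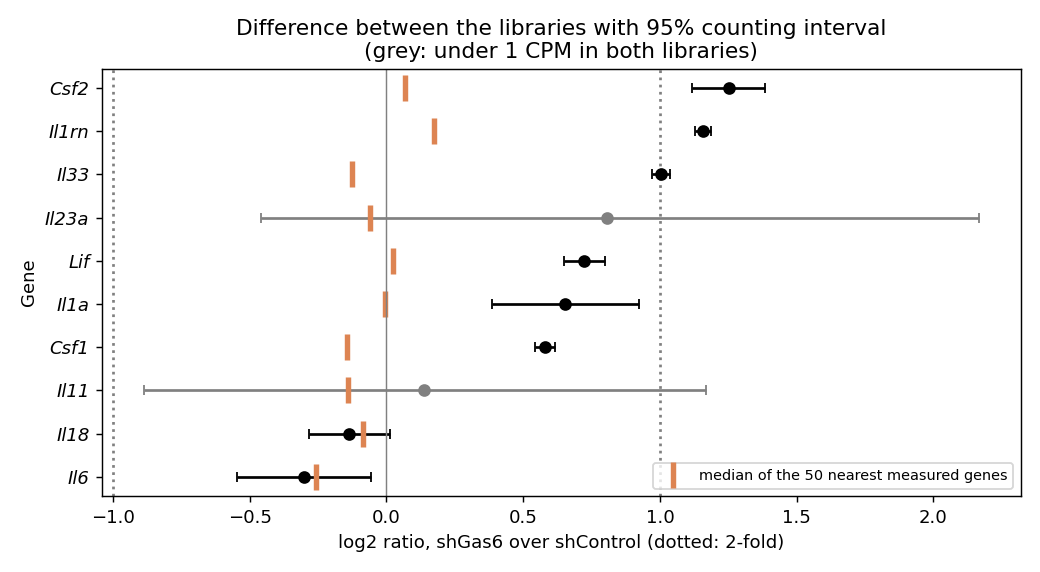
Log2 ratio of scaled counts, shGas6 over shControl, for the 10 cytokine genes with 95% counting intervals (horizontal bars), and the median log2 ratio of the 50 measured genes nearest to each on its chromosome (orange marks). Csf2, Il1rn and Il33 are at or past the 2-fold line, while Il6 and Il18 lie near the median of their neighbours.

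In the IL-1 family, the antagonist and the alarmins Il33 and Il1a were higher in shGas6 and Il18 was not. Il1rn (NCBI gene 16181, chr2:24336860-24351491), the receptor antagonist, had 14109 counts in shControl and 32042 in shGas6. These are 278 and 620 CPM, a 2.23-fold higher level in shGas6 (2.19 to 2.28). The 50 measured genes nearest to Il1rn had a median log2 ratio of 0.18, and the log2 ratio of Il1rn was 1.16, or 0.98 with that median subtracted.

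RefSeq gives 3 start sites for Il1rn on GRCm38.p6, which serve secreted and intracellular forms of the protein, and the gene-level counts do not separate them. The 250 bases before the most downstream of these sites are shown because they hold a match to the NF-kB motif GGNNTTTCC (capitals), the factor that IL-1 receptor signalling activates.
Il1rn promoter, chr2:24345121-24345370, plus strand: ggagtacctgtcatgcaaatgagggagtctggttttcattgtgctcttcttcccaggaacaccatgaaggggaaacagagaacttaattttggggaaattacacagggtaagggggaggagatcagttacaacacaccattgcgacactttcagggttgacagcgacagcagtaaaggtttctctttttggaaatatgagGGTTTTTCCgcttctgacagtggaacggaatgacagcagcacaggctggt
The match begins 50 bases before the start site. The window before the most upstream site holds instead an AP-1 motif, TGANTCA, 141 bases before the start.

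Il1a (NCBI gene 16175, chr2:129299609-129310186), the agonist that the antagonist competes with, was counted 188 times in shControl and 301 times in shGas6. At 3.70 and 5.82 CPM it was 1.57-fold higher (1.31 to 1.90). Il1a overlaps Gm14023, which had 16 and 31 counts. Il1b, the other agonist of the same receptor and its neighbour on the chromosome, had 0 counts in both libraries. Per length, Il1rn stood 60.9-fold above Il1a in shControl and 85.8-fold above it in shGas6.

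Il33 (NCBI gene 77125, chr19:29925113-29960718), a nuclear alarmin released from damaged epithelium, was counted 10970 times in shControl and 22361 times in shGas6. At 216 and 432 CPM it was 2.0-fold higher, with an interval (1.96 to 2.05) that spans the 2-fold mark. With the libraries scaled by total count or by upper quartile, its log2 ratio was 0.998 and 0.96, under the mark of 1 that stands for 2-fold. The neighbouring genes had a median log2 ratio of -0.13.

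Il18 (NCBI gene 16173, chr9:50554700-50581841), which caspase-1 cuts into its active form, was counted 769 times in shControl and 712 times in shGas6. At 15.1 and 13.8 CPM it was 1.10-fold lower, and the interval (0.991 to 1.22) included no difference. Il18 overlaps Bco2, which had 90 and 179 counts, and the strand setting of the counting is not given, so reads of the overlap could belong to either gene. Casp1, which encodes caspase-1, went from 68.1 CPM (shControl) to 24.8 CPM (shGas6), 2.74-fold lower (2.57 to 2.93).

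The IL-36 genes, close relatives that lie in the same cluster as Il1rn on chromosome 2, differed in the opposite direction. Il1f6, which encodes IL-36 alpha, counted 3539 reads in shControl against 766 in shGas6. Its level was 69.6 and 14.8 CPM, 4.70-fold lower (4.35 to 5.09). Il1f9 (IL-36 gamma) had 89 and 18 counts, 5.03-fold lower (3.01 to 8.87). These agonist genes begin 121 and 150.4 kb from the start of Il1rn. The windows of 50 measured genes around these genes and around Il1rn overlap. Their equal median log2 ratio of 0.18 is therefore not a separate observation.

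The other 3 genes of the cluster were below 1 CPM in both libraries. Il1f10 (IL-38) had 50 and 12 counts, 4.24-fold lower (2.23 to 8.74). Il1f8 (IL-36 beta) had 10 and 0, 3.39-fold lower with the 0 set to a floor of 3 counts and no counting interval. Il1f5, the antagonist of the IL-36 receptor, had 29 and 22 counts, and its interval included no difference (1.34-fold lower, 0.744 to 2.45). On the other side of Il1rn, the adjacent gene Psd4 was 1.14-fold higher (1.07 to 1.21). Pax8, which follows it and encodes a developmental transcription factor, had 89 and 585 counts, 6.46-fold higher (5.16 to 8.17). Per length, Il1rn stood 1.43-fold above Il1f6 in shControl and 15.0-fold above it in shGas6. Il1rl2, the receptor of IL-36, had 0 counts in both libraries.

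**Figure D3:**
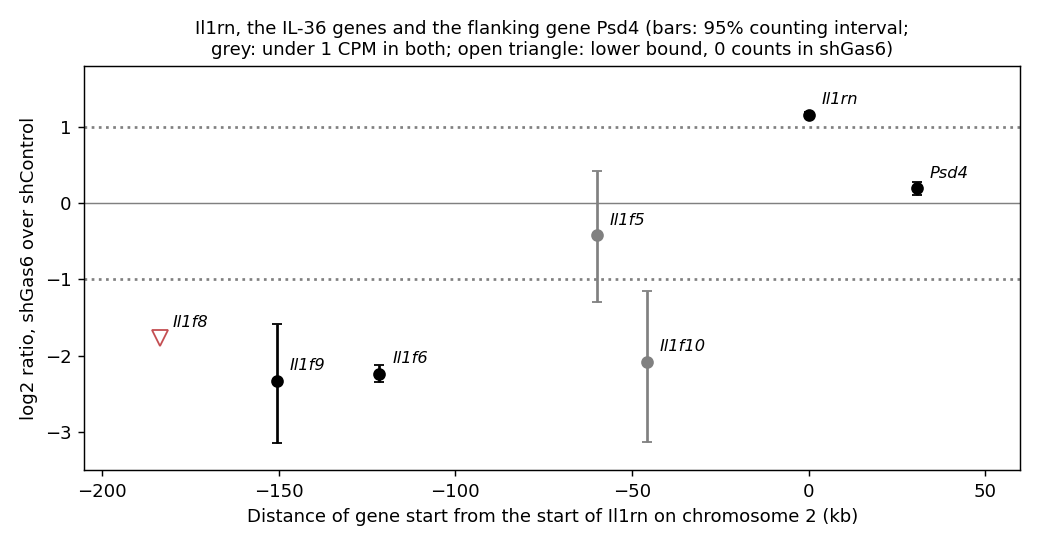
Log2 ratio, shGas6 over shControl, of Il1rn, the IL-36 genes, Il1f10 and the flanking gene Psd4 against the distance of each gene's start from that of Il1rn (kb), with 95% counting intervals. Il1rn lies above the 2-fold line, whereas Il1f6, Il1f9 and Il1f10 lie below it on the other side. Il1f8, with its 0 set to the floor of 3 counts and no counting interval, is an open triangle.

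Of the IL-1 family receptors, the signalling one for IL-1 was present and the ligand-binding one for IL-33 was scarce. Il1r1, the signalling receptor of IL-1, was at 26.6 and 24.1 CPM, 1.11-fold lower (1.02 to 1.20). Its partner Il1rap, shared with the IL-33 receptor, was at 7.77 and 5.63 CPM, 1.38-fold lower (1.18 to 1.61). Il1r2, a decoy receptor, had 39 and 16 counts, 2.48-fold lower (1.35 to 4.75), and was below 1 CPM in both libraries. Il1rl1, the ligand-binding receptor of IL-33, had 4 counts in shControl and 7 in shGas6, with no detectable difference at this depth (1.72-fold, 0.437 to 8.01).

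The chains of the IL-18 receptor were unequal. Il18rap, the accessory chain, stood at 45.0 CPM (shControl) and 12.5 CPM (shGas6), 3.60-fold lower (3.30 to 3.94). Il18r1, the ligand-binding chain, had 34 and 25 counts and was below 1 CPM in both libraries. Il18bp, a soluble neutraliser of IL-18, had 46 and 27 counts, 1.73-fold lower (1.06 to 2.90), and was also below 1 CPM in both.

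Of 15 measured genes of IL-1 family maturation and release, 2 passed 2-fold upward and 1, Casp1, downward, and the median log2 ratio was -0.13. The shares of all measured genes past 2-fold were 8.64% upward and 6.19% downward. Nlrp3, an inflammasome sensor, was at 0.315 and 1.76 CPM, 5.59-fold higher (3.26 to 10.2). It counted as measured through shGas6 alone. Naip1, a sensor for bacterial secretion needles, was 4.09-fold higher (3.79 to 4.43), while Naip2, Naip5 and Naip6 were 1.18-fold to 1.55-fold lower. These Naip genes are close copies whose reads may be shared, so the split among them is uncertain. Pycard, the adaptor that joins sensors to caspase-1, had 0 and 2 counts. Gsdmd, the pore-forming protein through which mature IL-1 family cytokines leave the cell, was at 250 and 258 CPM, and Capn2, a calpain, at 439 and 344 CPM. Casp8, a caspase that can also process IL-1 family cytokines, was at 112 and 109 CPM, and Ninj1, which ruptures the membrane of dying cells, at 38.0 and 45.1 CPM.

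Of 16 measured genes of IL-1 receptor and Toll-like receptor signalling, 15 had a log2 ratio above 0 and 1 passed 2-fold upward. Their median log2 ratio was 0.30. Of all measured genes, 49.1% had a ratio above 1 and 8.64% were at least 2-fold higher. The intervals of Myd88, Irak3, Peli1 and Map3k7 included no difference. The gene past 2-fold was Tnfaip3, which encodes the NF-kB inhibitor A20, with 74.2 and 239.9 CPM, 3.23-fold higher (3.12 to 3.35). Nfkbiz, an inducible NF-kB cofactor, was 1.37-fold higher (1.34 to 1.40). Irak2, a kinase downstream of the receptors, was 1.28-fold higher (1.23 to 1.33), and the adaptor Tab2 1.05-fold (1.02 to 1.08). Zc3h12a, which encodes the RNase Regnase-1, was the exception, at 310 and 217 CPM, 1.42-fold lower (1.39 to 1.46).

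The gp130 cytokines differed among themselves, with Lif higher, Il6 slightly lower and Il11 near the detection limit. Lif (NCBI gene 16878, chr11:4257568-4272514), which maintains stem cells and acts on many epithelia, was counted 2283 times in shControl and 3835 times in shGas6. At 44.9 and 74.1 CPM it was 1.65-fold higher (1.57 to 1.74). The interval lies wholly below 2-fold.

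Il6 (NCBI gene 16193, chr5:30013114-30019975), an inducer of the acute-phase response, was counted 309 times in shControl and 255 times in shGas6. At 6.08 and 4.93 CPM it was 1.23-fold lower (1.04 to 1.46). The 50 measured genes nearest to Il6 had a median log2 ratio of -0.26, and the log2 ratio of Il6 was -0.30, so that -0.04 was left with their median subtracted. Per length, Lif stood 1.99-fold above Il6 in shControl and 4.10-fold above it in shGas6.

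The Il6 promoter is shown because it holds matches to 4 of the 5 motifs searched, each in capitals: AP-1 (TGANTCA) at its 5′ end, the core of the cyclic AMP response element (TGACGT, here on the other strand), C/EBP (TTGNGCAA) and NF-kB (GGNNTTTCC).
Il6 promoter, chr5:30012864-30013113, plus strand: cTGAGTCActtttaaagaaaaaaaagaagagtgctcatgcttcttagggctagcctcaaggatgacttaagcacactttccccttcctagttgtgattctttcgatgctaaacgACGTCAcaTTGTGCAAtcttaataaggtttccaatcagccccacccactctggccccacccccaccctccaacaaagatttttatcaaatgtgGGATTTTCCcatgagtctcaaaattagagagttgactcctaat
The matches begin 249, 136, 128 and 43 bases before the start site, and none overlaps another. Cebpb, which encodes the C/EBP factor also known as NF-IL6, was 2.36-fold higher in shGas6 (2.23 to 2.5), at 32.4 and 76.5 CPM. Junb, an AP-1 subunit, was 2.37-fold higher (2.32 to 2.41), at 282 and 667 CPM. Whether either factor acts on Il6 in these cells was not tested.

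Il11 (NCBI gene 16156, chr7:4772373-4782907), an epithelial and stromal cytokine of the same family, had 17 counts in shControl and 19 in shGas6. A difference was not detectable at this depth (1.10-fold, 0.541 to 2.25). Osm, a relative of Lif that lies beside it on chromosome 11, was not counted in shControl and had 21 counts in shGas6, at least 6.88-fold higher, and stayed under 1 CPM. Clcf1, another gp130 ligand, was at 31.6 and 35.4 CPM, 1.12-fold higher (1.05 to 1.20).

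Among the receptors of these cytokines, Lifr stood apart. Lifr, the ligand-binding chain for LIF, counted 4946 reads in shControl against 11657 in shGas6. At 97.3 and 225 CPM it was 2.32-fold higher (2.24 to 2.40). Il6st, which encodes gp130, was at 61.2 and 56.2 CPM, 1.09-fold lower (1.04 to 1.15). Il6ra was 1.32-fold lower (1.18 to 1.49), at 13.5 and 10.2 CPM, and Il11ra1 was at 4.82 and 4.18 CPM with an interval that included no difference (1.15-fold lower, 0.957 to 1.39). Thus Lif and Lifr were both higher while the shared chain was not. Per length, Lifr stood 1.05-fold above Il6st in shControl and 2.73-fold above it in shGas6.

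All 18 genes of the gp130 and JAK-STAT list were measured, with 3 at least 2-fold higher, none at least 2-fold lower and a median log2 ratio of 0.35. That is 16.7% at least 2-fold higher, against 8.64% of all measured genes. The log2 ratio was above 0 for 13 of the 18 and below 0 for 5. The genes past 2-fold were Junb, Cebpb and Cish, a STAT5-induced suppressor of cytokine signalling with 2.12 and 7.73 CPM, 3.64-fold higher (2.94 to 4.55). Ptpn11, the phosphatase SHP2, was at 201 and 187 CPM, and Cebpd, another C/EBP factor, at 184 and 204 CPM. Bcl3, an atypical inhibitor of NF-kB, was 1.18-fold higher (1.14 to 1.21) and Stat3 1.36-fold higher (1.31 to 1.40). Socs3, the feedback inhibitor of gp130, was 1.51-fold higher (1.43 to 1.60). Socs1 and Socs2 of the same list went the other way, 1.35-fold lower (1.16 to 1.57) and 1.31-fold lower (1.23 to 1.38).

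Il23a (NCBI gene 83430, chr10:128296140-128298084) encodes p19, which pairs with p40 to form IL-23. It had 9 counts in shControl and 16 in shGas6, with no detectable difference at this depth (1.75-fold, 0.727 to 4.49). Il12b, which encodes p40, had 0 and 10 counts. The receptor chains Il12rb1 (8 and 13 counts) and Il23r (0 and 6 counts) were similarly scarce.

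Of the colony-stimulating factors, Csf1 and Csf2 were higher in shGas6 and Csf3 was lower. Csf2 (NCBI gene 12981, chr11:54247270-54249899), which encodes GM-CSF, was counted 653 times in shControl and 1581 times in shGas6. At 12.8 and 30.6 CPM it was 2.38-fold higher (2.17 to 2.61), the largest ratio among the 8 measured cytokine genes. Il3, the adjacent cytokine gene, had 0 counts in both libraries, and the 50 nearest measured genes had a median log2 ratio of 0.07.

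Csf1 (NCBI gene 12977, chr3:107741048-107760469), which encodes the macrophage growth factor M-CSF, was counted 10030 times in shControl and 15234 times in shGas6. At 197 and 295 CPM it was 1.49-fold higher (1.46 to 1.53). Its neighbours had a median log2 ratio of -0.14, and its own log2 ratio was 0.58. Il34, the other ligand of the same receptor, was at 5.00 and 6.32 CPM, 1.27-fold higher (1.07 to 1.5).

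Csf3, which encodes the granulocyte factor G-CSF, counted 4523 reads in shControl against 2003 in shGas6. At 89.0 and 38.7 CPM it was 2.30-fold lower (2.18 to 2.42). Per length, Csf2 stood at 0.203 of the level of Csf3 in shControl and at 1.15 of it in shGas6. The order of these 2 genes was therefore exchanged between the libraries. The receptors of these factors were at or near 0: Csf1r had 0 and 4 counts, Csf2ra 11 and 0, Csf2rb 2 and 4, and Csf2rb2 and Csf3r 0 in both. Csf2rb and Csf2rb2 are near-identical copies and may share reads.

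**Figure D4:**
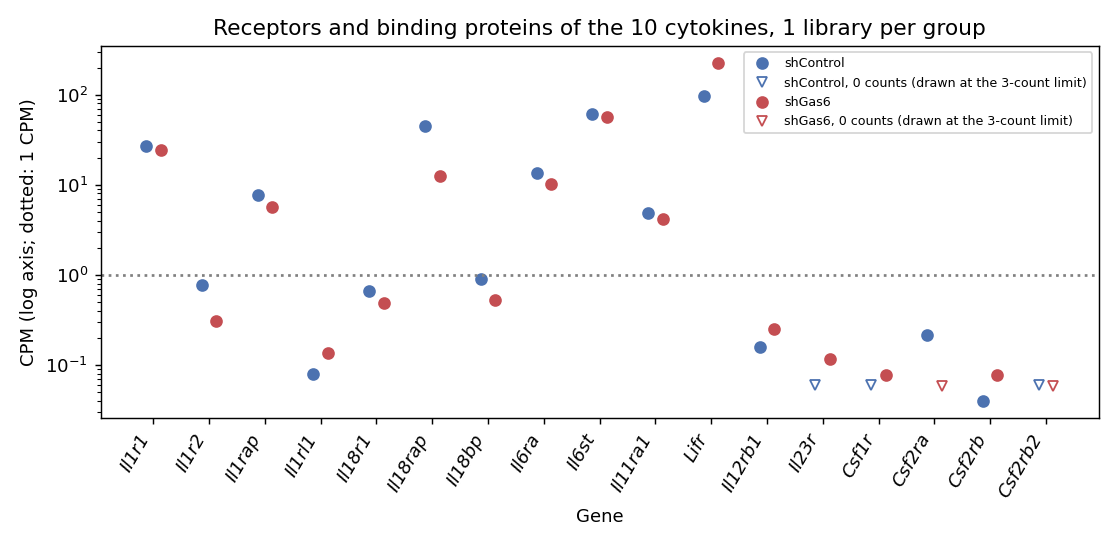
CPM (log axis) of 17 receptors and binding proteins of the 10 cytokines in the shControl and shGas6 libraries, with open triangles at the 3-count limit where a library had 0 counts. Lifr is higher and Il18rap lower in shGas6. The ligand-binding receptor of IL-33 (Il1rl1) and the receptors for IL-23, M-CSF and GM-CSF lie below 1 CPM.

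Taking the receptors and binding proteins as a list, 7 of 17 were measured, 1 at least 2-fold higher (Lifr) and 1 at least 2-fold lower (Il18rap). Of these 7, 6 had a log2 ratio below 0, and the median was -0.21. Of 16 measured receptors for other interleukins, 2 passed 2-fold upward and 2 downward, and the median was 0.14. For both lists the background is 8.64% of all measured genes upward and 6.19% downward. Il5ra, the IL-5 receptor alpha chain, was 4.26-fold higher (4.11 to 4.42), with 72.8 and 311 CPM. Il17re, a receptor for the epithelial cytokine IL-17C, was 6.94-fold higher (4.09 to 12.6) from 16 counts to 113. Il13ra2, a decoy for IL-13, was at 37.0 and 6.81 CPM, 5.44-fold lower (4.85 to 6.11). Il2rg, the common gamma chain, was 4.94-fold lower (2.75 to 9.51), from 68 counts to 14. Il17re and Il2rg each reached 1 CPM only in the library where they were higher. Among the rest, Il22ra1, an IL-22 receptor chain of epithelia, was 1.82-fold higher (1.78 to 1.87), and Il13ra1, which signals for IL-13, 1.88-fold higher (1.79 to 1.97). Il17rc was 1.19-fold lower (1.15 to 1.24), and the interval of Il10rb included no difference (1.03-fold lower, 0.989 to 1.08).

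Of 43 other interleukins, colony-stimulating factors and related ligands, 18 had 0 counts in both libraries and 10 were measured. None of the 10 was at least 2-fold higher and 4 were at least 2-fold lower, against 8.64% and 6.19% of all measured genes. Still, 5 had a log2 ratio above 0 and 5 below. The median log2 ratio was -0.36, and it turned to 0.25 when 5 CPM was required, so no direction is given for the list. Il1f9 and Il16 reached 1 CPM in shControl alone, so they could enter the count of measured genes only through the library in which they were higher. Besides Il1f6, Il1f9 and Csf3, the lower genes included Il16, whose product draws CD4+ T lymphocytes, at 3.34 and 0.483 CPM, 6.92-fold lower (4.53 to 11.0). Among the rest, Kitl, the ligand of KIT, was 1.75-fold higher (1.68 to 1.82), with 72.5 and 127 CPM. Il7, a lymphocyte survival factor, was 1.54-fold higher (1.41 to 1.67), and Flt3l, a growth factor for dendritic cells, 1.95-fold higher (1.67 to 2.28). Il15, which sustains T and NK cells, was at 7.59 and 4.14 CPM, 1.83-fold lower (1.55 to 2.18).

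**Figure D5:**
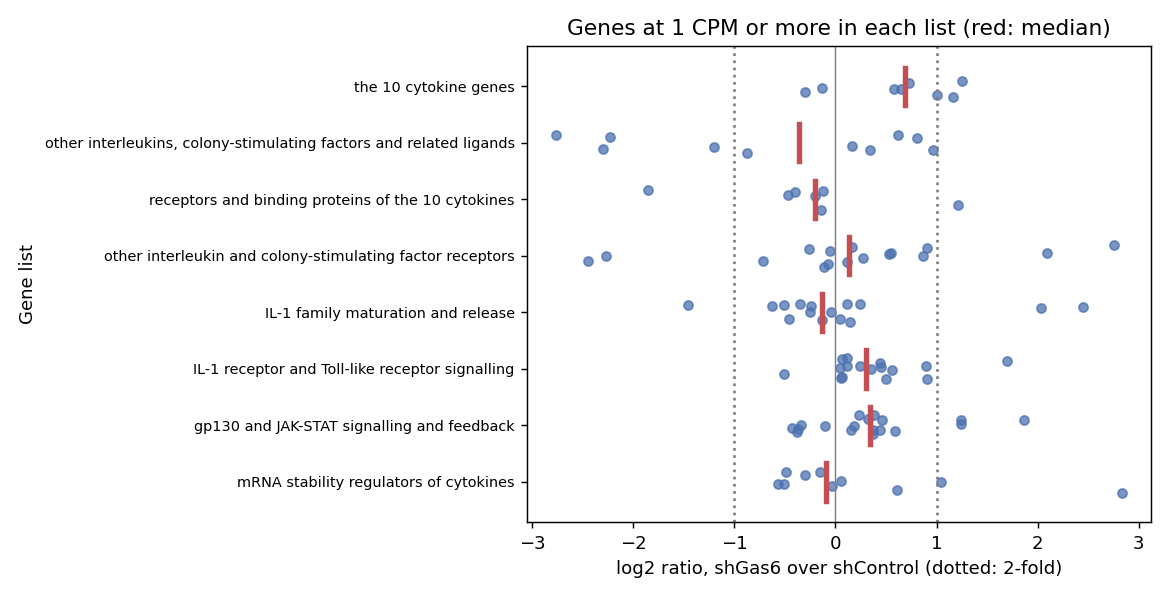
Log2 ratio, shGas6 over shControl, of each gene at 1 CPM or more in the 10 cytokine genes and in 7 related lists (points), with the median of each list in red and dotted lines at 2-fold. The median of the cytokine genes is 0.69 and that of the other ligands -0.36, with 5 of their 10 genes on either side of 0 and a median of 0.25 at a filter of 5 CPM.

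The messenger RNAs of the cytokine genes differ in the AU-rich pentamer ATTTA, which in the 3′ untranslated region is bound by regulators of RNA stability such as tristetraprolin (Zfp36). In the longest coding transcript of each gene in the GENCODE annotation, Csf2 held 9 pentamers in 317 bases, or 28.4 per kb, and Il6 held 6 in 427 bases, or 14.1 per kb. Il11 held 10 in 1194 bases and Lif 7 in 3180 bases. Il1rn held none in 1864 bases, Il33 had 3 in 1663 bases and Csf1 4 in 2111 bases. The median over 11478 measured genes was 1.30 per kb. The longer motif TTATTTATT occurred in Csf2, Il11, Lif and Il23a, and thus in 2 of the 8 measured cytokine genes (Csf2 and Lif), against 7.79% of all measured genes with such a region. Below are the 30 bases of each region with the most pentamers (capitals, overlapping copies joined, transcript strand), for the gene with the largest ratio, the gene that was lower, and Lif.
Csf2 3′ site, chr11:54247329-54247358, minus strand: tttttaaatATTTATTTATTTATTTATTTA
Il6 3′ site, chr5:30019677-30019706, plus strand: tttaattatttttaATTTAttgataATTTA
Lif 3′ site, chr11:4272414-4272443, plus strand: ATTTAttcaatgtcatATTTAaaatATTTA
Among the cytokine genes with a higher level in shGas6, Csf2 was pentamer-rich and Il1rn pentamer-free. A link between the pentamers and the differences was not tested.

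Of 10 regulators of cytokine RNA stability, all measured, 2 were at least 2-fold higher and none at least 2-fold lower, with a median log2 ratio of -0.09. The background is 8.64% of all measured genes at least 2-fold higher and 6.19% at least 2-fold lower. Arid5a, known to stabilise Il6 RNA, was at 9.52 and 68.0 CPM, 7.14-fold higher (6.49 to 7.87). Zfp36, which destabilises AU-rich transcripts, stood at 25.5 and 52.6 CPM, 2.07-fold higher (1.93 to 2.21). Of the relatives of Zfp36, Zfp36l2 was 1.52-fold higher (1.48 to 1.57) and Zfp36l1 1.41-fold lower (1.34 to 1.48). Khsrp, another destabilising protein, was at 171 and 178 CPM, and Zc3h12a belongs to this list as well.

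Across the promoter windows of 250 bases in the RefSeq table, both strands searched, matches were counted for 13 start sites of 9 of the cytokine genes; Il23a had no entry. The NF-kB motif occurred in 3 of the 13 (Csf1, Il1rn and Il6) and in 4.93% of all 32851 windows. The AP-1 motif occurred in 5 of the 13 (Il1a, Il1rn, Il6, Il11 and Lif) and in 6.75% of all windows. The core of the cyclic AMP response element occurred in 1 (Il6), against 6.47%, and the C/EBP motif in 2 (Csf2 and Il6), against 2.61%. The interferon-response motif GAAANNGAA occurred in 1 (Csf2), against 7.13%. Start sites of 1 gene can share bases, so the 13 are not independent.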

How the data were processed

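RNA of YTN16 cells was sequenced in 1 shControl and 1 shGas6 library from a strand-marking mRNA kit, per the labels' protocols. Trimmomatic and the build GRCm38 (mm10) are named per the submitters' processing notes, with the aligner, counting tool and strand setting not given in the sources used here. Per the file headers, the authors deposited raw read counts, FPKM (per transcript length and library size) and TPM (scaled by the authors to a fixed library total).

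Library scaling used edgeR 4.0.16 (TMM) in R 4.3.3. The log2 ratio adds a pseudocount of 0.5 to each scaled count; folds are without it, with exact (Clopper-Pearson) 95% intervals (scipy 1.17.1) that cover counting error only, since PCR copies are not independent. A gene with 0 counts in 1 library was compared with a floor of 3 counts (0.0590 CPM in shControl, 0.0580 CPM in shGas6). Such a fold leaves out the counting error of the other library. Genes that reached 1 CPM in either library were called measured. With 1 library per group there is no test and no p-value, and a gene was counted by a fold of 2. The functions were tested on simulated Poisson counts with planted folds beyond 2. Such counts hold no variation between replicates, so this checks the functions and not the calls near 2-fold. Positions are from RefSeq on GRCm38.p6 (45679 of 45777 genes matched), promoters from RefSeq and 3′ regions from GENCODE on GRCm38.

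The 10 genes, the 7 lists and the motifs were chosen with earlier results of these data known. Named were the 10 genes, Gas6, Axl, the receptors of the 10, and of every other list the measured genes past 2-fold and up to 4 of the rest by TPM in the higher library. Il1b, Il1f5, Il1f8, Il1f10, Il1rl2, Il3, Il12b, Il15, Il34, Osm, Csf3r, Socs1, Socs2, Socs3, Pycard, Naip2, Naip5, Naip6, Bco2, Gm14023, Psd4 and Pax8 were named after their values were seen. Alternatives were scaling by DESeq2 1.42.0 size factors, by upper quartile and by total count, deposited TPM and FPKM, a pseudocount of 5, other filters and thresholds, the counting interval, and subtraction of the median of 50 neighbouring genes.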

Additional observations from a re-analysis of the deposited data

How the results depend on the processing

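The number of cytokine genes at least 2-fold higher (3) was 2 or 3 under other scalings, deposited TPM and FPKM, a pseudocount of 5, other filters, the counting interval and the subtraction of neighbouring genes, and none was at least 2-fold lower in any setting. Csf2 and Il1rn were past 2-fold under each scaling and unit, and Il33 was below it with total count, with upper quartile and by the counting interval; Il1rn was below it, at a log2 ratio of 0.98, with the neighbours subtracted. At 1.5-fold the number was 5 and at 4-fold 0. For all genes, the numbers higher and lower (1155 and 828) were 4202 and 3339 with a filter of 1 count, 729 and 466 when 5 CPM was asked for, 2145 and 1679 past 1.5-fold, and 422 and 342 past 4-fold. Of 70 alternative log2 ratios of the 10 genes, 60 stayed within the counting interval, 10 moved beyond it and none changed sign. The median of the other ligands (-0.36) had the other sign, 0.25, at 5 CPM; the filter leaves fewer genes there. No paired analysis was possible because each group has 1 library. Depth limits Il11, Il23a and most receptors, whose counts leave wide intervals.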
